A study of Mus musculus with 32 samples.

Results

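The interferon regulatory factors (IRFs) are a family of transcription factors, and the 7 family genes described here are Irf1, Irf2, Irf3, Irf4, Irf5, Irf7 and Irf9. They were taken by gene symbol from the table of raw gene counts, 7 rows of 24421, with no value used to choose them. Each of the 7 passed the filter on low counts and was among the 14154 genes tested. Irf8, outside the set, is mentioned only where a result touches it.

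RNA sequencing was performed on 8 fractions of bone marrow sorted from female C57BL/6 mice, 10 weeks of age in the Young group and 20 months in the Aged group, with 2 libraries in each of the 16 groups and 32 in all. No transgene, deletion or treatment is named for either age, and the labels separate the groups by age and fraction. The paper states that mice were bought at 10 weeks and raised to the older age in the authors' animal facilities. Housing history therefore cannot be told apart from age. Within the lineage-negative, IL-7 receptor-negative, Sca-1+ c-kit+ compartment, hematopoietic stem cells (HSCs) were CD34- CD150+ CD48- Flt3-, and the multipotent progenitors (MPPs) were CD34+ and split by CD150, CD48 and Flt3 into MPP1 (+, -, -), MPP2 (+, +, -), MPP3 (-, +, -) and MPP4 (-, +, +). Granulocyte-macrophage progenitors (GMPs) and megakaryocyte-erythrocyte progenitors (MEPs) were Sca-1- c-kit+ and were CD34+ or CD34- and Fcγ receptor-positive or -negative, respectively, while common lymphoid progenitors (CLPs) were IL-7 receptor-positive with low Sca-1 and c-kit. Total counts ran from 11237384 to 17723245 per library, so that 3 counts, used as the detection floor, correspond to 0.186 to 0.281 CPM (read counts scaled to a common library total). In RNA the antigens of the sorts were largely as labelled, with Kit at 587 to 1365 CPM in HSCs and MPPs, Cd34 at 0.128 to 0.656 CPM in MEPs and at 450.2 to 492.6 CPM in GMPs, and Il7r at 157.4 to 200.7 CPM in CLPs and at most 6.72 CPM in HSCs, MPPs and GMPs. Young MEPs had 9.99 and 16.8 CPM of Il7r and Aged MEPs 0.187 and 0.430 CPM. The marrow of each age was described as pooled and sorted in duplicate, and elsewhere as biological duplicates. Errors and p-values therefore rest on the spread between duplicates, which may be technical. For p-values and standard errors of the fit this spread was shared by all 16 groups, not taken from the groups compared.

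IRFs share a DNA-binding domain that reads GAAA repeats, found in pairs in the interferon-stimulated response element (ISRE). Irf3 and Irf7 are activated by phosphorylation downstream of sensors of foreign nucleic acid and switch on type I interferon genes, and Irf5 acts downstream of Toll-like receptors in myeloid and B cells. Irf9 is the DNA-binding subunit of ISGF3, the complex with Stat2 that transmits the type I interferon signal. Irf1 is itself induced by interferon-gamma through a gamma-activated site (GAS), and Irf2 binds the same elements as Irf1 and often represses them. Irf4 acts in lymphocytes with the ETS factors Spi1 (PU.1) and Spib. In stem cells, interferon signaling is known to bring dormant cells into cycle, and Irf2 is known for restraining that signal.

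Irf1, Irf2 and Irf7, the 3 genes whose age difference in GMPs, in MEPs and in CLPs each exceeded that in MPPs, are shown with the bases before their start sites (RefSeq, GRCm38.p6), where response elements of interferon signaling are commonly found. Each line runs 5′ to 3′ on the strand of the gene over 250 bases. They are Irf1 at chr11:53769764-53770013 on the plus strand with the GAS letters TTCNNNGAA in capitals, Irf2 at chr8:46739495-46739744 on the plus strand with the ISRE letters GAAANNGAAA in capitals, and Irf7 at chr7:141266425-141266674 on the minus strand, with neither.
Irf1: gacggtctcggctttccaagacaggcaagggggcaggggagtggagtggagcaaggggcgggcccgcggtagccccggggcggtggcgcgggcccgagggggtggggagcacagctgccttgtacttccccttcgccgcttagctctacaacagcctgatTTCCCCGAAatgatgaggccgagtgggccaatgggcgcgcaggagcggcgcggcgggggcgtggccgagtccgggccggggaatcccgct
Irf2: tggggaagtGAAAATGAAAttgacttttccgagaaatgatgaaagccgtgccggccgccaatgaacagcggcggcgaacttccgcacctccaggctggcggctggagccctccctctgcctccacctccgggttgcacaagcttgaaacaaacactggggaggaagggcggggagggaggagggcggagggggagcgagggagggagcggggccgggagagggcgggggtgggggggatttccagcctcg
Irf7: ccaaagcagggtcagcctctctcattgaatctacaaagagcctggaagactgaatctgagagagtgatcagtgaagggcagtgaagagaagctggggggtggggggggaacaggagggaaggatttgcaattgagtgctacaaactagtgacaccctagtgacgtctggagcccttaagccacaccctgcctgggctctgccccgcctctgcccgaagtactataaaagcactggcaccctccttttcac

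The GAS letters of Irf1 begin 90 bases before the start site and the ISRE letters of Irf2 241 bases before it. Irf2 also holds GAS letters, which do not overlap its ISRE letters, 224 bases before the start site.
Irf2, chr8:46739511-46739540, GAS letters in capitals: aaattgacttTTCCGAGAAatgatgaaagc
Both strands were searched over 250 bases before and 50 after each start site, 300 in all. The ISRE letters were present in 3.44% and the GAS letters in 8.3% of the 32851 promoter windows of the same length. All 7 genes had a window, 2 of them (Irf1 and Irf9) had a pair of windows, and the windows of Irf3, Irf4, Irf5, Irf7 and Irf9 held neither set of letters. The Irf9 windows began at 55603735 and 55604329 on chromosome 14, inside the gene as GENCODE places it. The bases before its GENCODE start were not searched. A match is a description of letters, not a site shown to be used. By GENCODE annotation on GRCm38 the genes lie at chromosome 11, 53770014 to 53778374 (Irf1, ENSMUSG00000018899.16), chromosome 8, 46739732 to 46847458 (Irf2, ENSMUSG00000031627.9), chromosome 7, 44997648 to 45002848 (Irf3, ENSMUSG00000003184.15), chromosome 13, 30749226 to 30766976 (Irf4, ENSMUSG00000021356.10), chromosome 6, 29526625 to 29541871 (Irf5, ENSMUSG00000029771.12), chromosome 7, 141262706 to 141266481 (Irf7, ENSMUSG00000025498.15) and chromosome 14, 55603571 to 55610030 (Irf9, ENSMUSG00000002325.15).

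To compare the genes with one another, CPM was divided by the length of the union of exons. On this scale Irf1 was the highest of the 7 in 11 of the 16 groups. It reached 61.0 ± 6.22 CPM per kilobase (SD, n = 2) in Young MPP4. Irf5 led in Young CLPs at 47.8 ± 2.55 CPM per kilobase, beside 40.3 ± 0.515 for Irf1, and the same pair shared the lead in Aged CLPs at 78.9 ± 17.9 for Irf5 and 78.6 ± 2.63 for Irf1, a gap smaller than the spread. The lead in CLPs depends on the length used: per kilobase of the longest transcript Irf1 was the higher in both, at 75.0 against 62.0 in Young and 146 against 102 in Aged CLPs. Irf3 led in Young GMPs and in MEPs of both ages, between 22.0 and 26.3 CPM per kilobase. Irf4 was the lowest of the 7 in every group, and the heat map of levels per kilobase shows it above 1 CPM per kilobase in CLPs only.

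**Figure D1:**
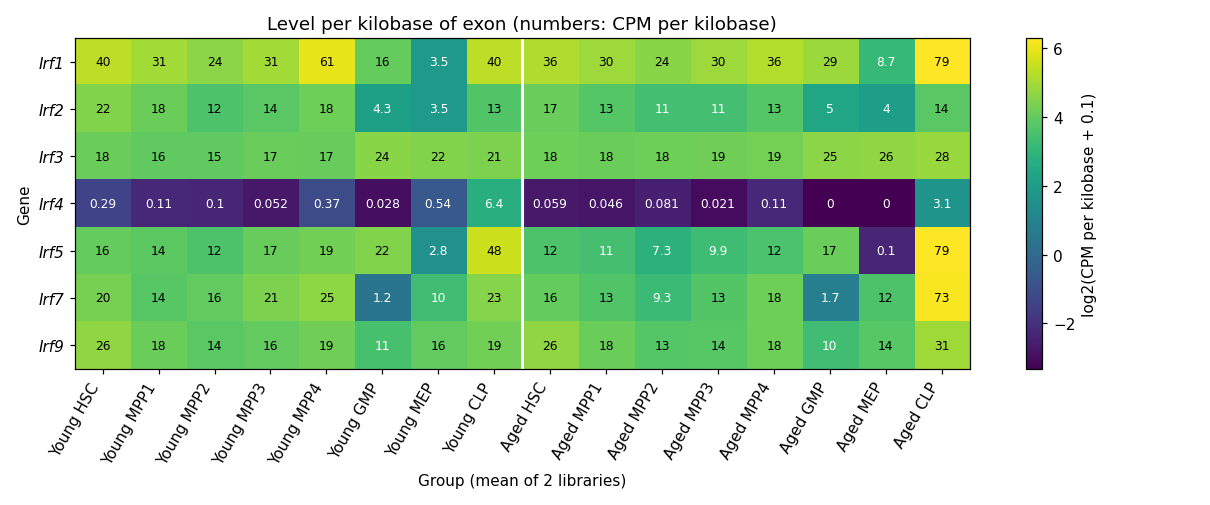
Heat map of the mean level (n = 2 libraries) of the 7 genes, rows, in the 16 groups, columns, in CPM per kilobase of exon, colored on a log2 scale. Irf1 has the highest value in each HSC and MPP column, Irf3 varies least across columns, and Irf4 is near 0 outside the CLP columns.

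In Young mice all 7 genes differed between fractions (edgeR F-test over the 8 Young groups, adjusted p from 2.97e-17 for Irf2 to 4.94e-08 for Irf3), as did 86.9% of all genes tested. In Aged mice the same held for all 7 (adjusted p from 2.41e-16 for Irf5 to 7.65e-09 for Irf3), against 85.5% of all genes, so variation between fractions was not particular to the family. The orders of the levels, in CPM, are what separates the genes, and they are given below for the Young fractions.

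Irf1 was highest in Young MPP4, with 260.2 and 225 CPM in the 2 libraries, and lowest in Young MEPs, with 12.55 and 15.3 CPM. CLPs (162 and 159 CPM) and HSCs (159.8 and 159 CPM) came next and did not differ past the test (log2 difference 0.01, adjusted p 0.958). MPP3 (119.5 and 128 CPM) and MPP1 (122 and 123 CPM) followed and did not differ past the test either, then MPP2 (98.7 and 95.1 CPM) and GMPs (64.6 and 65.2 CPM). The steps from MPP4 to CLP, HSC to MPP3, MPP2 to GMP and GMP to MEP passed the test, and the last was the largest at 2.22 on the log2 scale (adjusted p 2.58e-13).

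Irf2 was highest in Young HSCs, with 171 and 157.5 CPM, and was lowest in Young GMPs (30.4 and 33.7 CPM) and MEPs (24.4 and 27.1 CPM). Between these ends lay MPP4 (136.5 and 127 CPM), MPP1 (132.5 and 127 CPM), MPP3 (99.6 and 109.7 CPM), CLPs (93.9 and 97.5 CPM) and MPP2 (88.1 and 93.9 CPM). MPP4 and MPP1 did not differ past the test (adjusted p 0.891), nor did MPP3 and CLP (0.164) or CLP and MPP2 (0.446). The drop from MPP2 to GMP was 1.51 on the log2 scale (adjusted p 6.34e-13), the largest step of this gene.

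Irf3, whose product is present before any stimulus, had the narrowest range of the 7, 1.57-fold between its highest and lowest Young mean. It ran from 82.5 and 83.5 CPM in GMPs to 51.7 and 54.2 CPM in MPP2, and the only step between neighbors to pass the test was that from CLPs (69.4 and 75.7 CPM) to HSCs (58.8 and 62.4 CPM; 0.26 on the log2 scale, adjusted p 0.0045). Irf9 had the next narrowest, 2.32-fold, from 136 and 142 CPM in HSCs to 61.8 and 57.8 CPM in GMPs. The step from HSCs down to CLPs (107.7 and 97.6 CPM) passed the test (adjusted p 3.39e-04), and the 6 fractions from CLP down to MPP2 (77.2 and 77.0 CPM) had no step between neighbors that did.

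Irf7 lay between 37.0 and 95.3 CPM in all Young libraries but those of GMPs, in which it was 3.71 and 5.60 CPM. Only the step from MEPs (40.2 and 37.0 CPM) to GMPs passed the test, at 3.05 on the log2 scale (adjusted p 1.55e-11). Irf5 ran the other way at the myeloid end, with GMPs (65.3 and 62.3 CPM) next after CLPs (133.7 and 144 CPM). MEPs had the lowest Irf5, 7.81 and 8.47 CPM, and the steps that passed the test were the first (CLP to GMP, 1.12, adjusted p 3.72e-06) and the last (MPP2 to MEP, 2.12, adjusted p 2.25e-09). Irf4 was at 31.8 and 30.7 CPM in Young CLPs and at or below 3.59 CPM in each of the other Young libraries, and the step from CLP to MEP was 3.56 on the log2 scale (adjusted p 2.87e-06). Of the 28 pairs of Young fractions 13 differed for this gene, and the neighbors below CLP in its order had no step that passed the test. Young GMP replicate 1 had 0 counts of Irf4, which allows up to 3 counts.

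**Figure D2:**
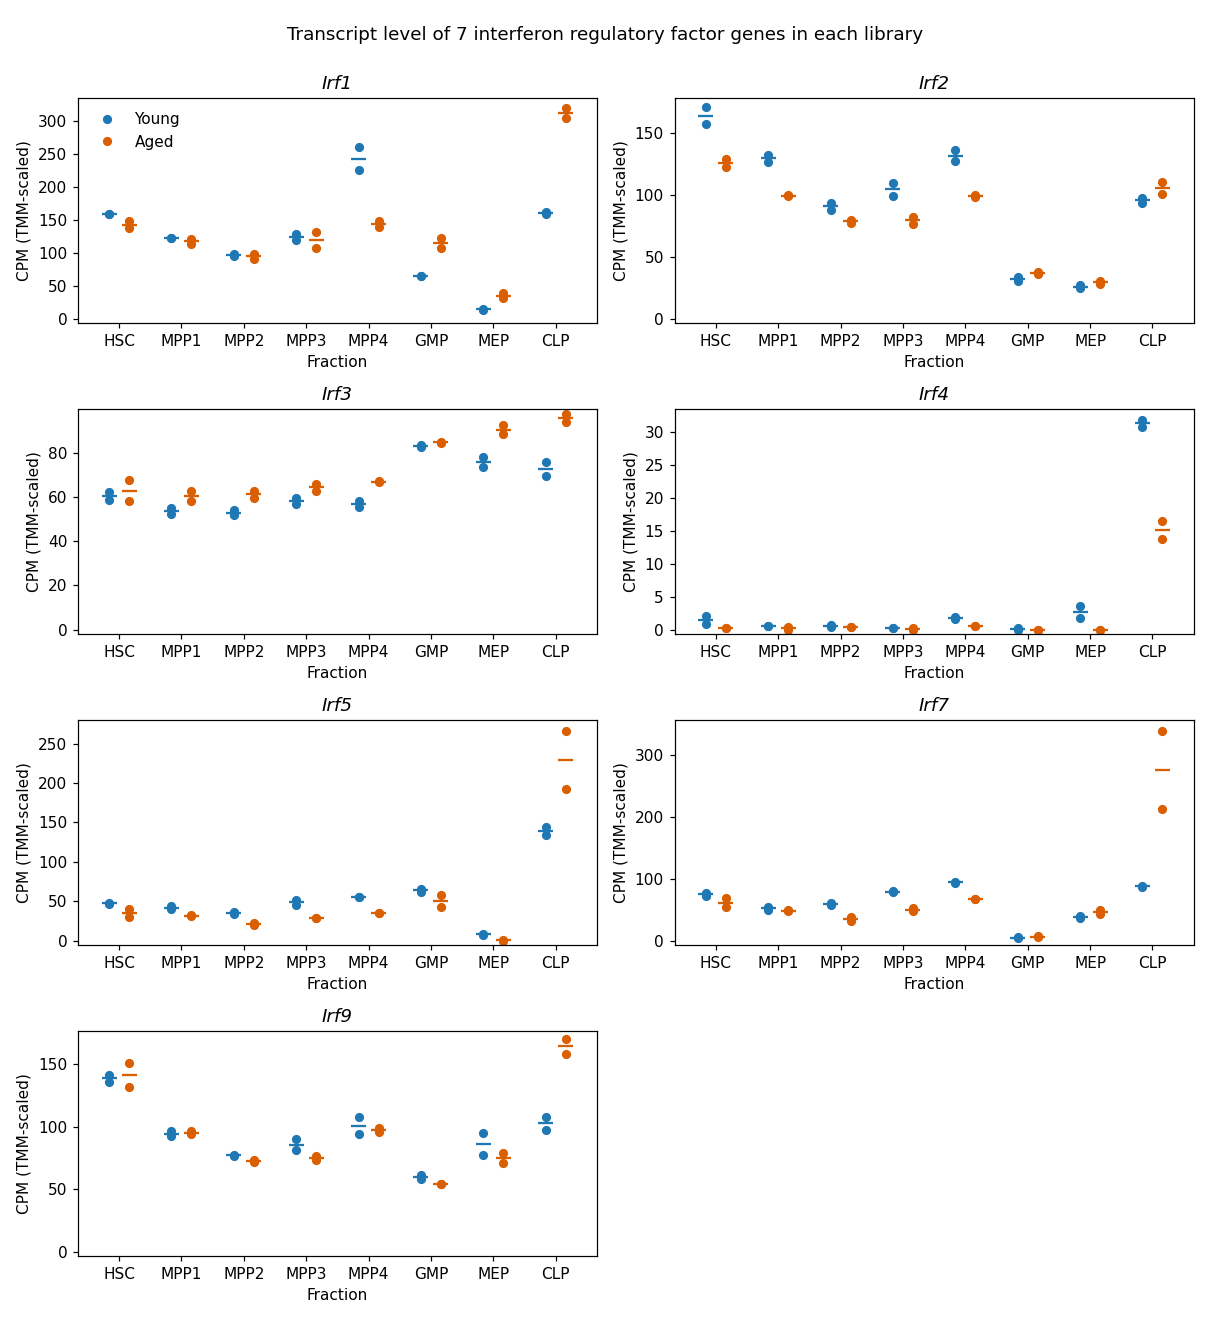
TMM-scaled CPM (vertical axis, linear, each panel with its own scale) of the 7 genes in the 8 fractions (horizontal axis), Young in blue and Aged in orange. Each dot is 1 library and each bar the mean of 2; Aged CLPs stand above Young CLPs in every panel but that of Irf4, and Aged MPPs stand below Young MPPs for Irf5.

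The next question was which of these levels differ with age. Of the 56 combinations of 7 genes and 8 fractions, 7 were called higher and 12 lower in aged cells (edgeR quasi-likelihood test, Benjamini-Hochberg adjusted p under 0.01 over the 14154 genes), and 37 were not called. The directions fell in different fractions. In HSCs and MPP1 to MPP4, 10 calls were made, all lower. They were of Irf1, Irf2, Irf5 and Irf7, the last 3 each counted in more than 1 fraction. In GMPs, MEPs and CLPs, 7 calls were higher and 2 lower, with 5 of the 7 higher calls in CLPs. Over all genes, 3.74% to 10.3% were higher and 1.66% to 11.7% lower, depending on the fraction.

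In the MPPs the calls were 1 of 7 genes lower in MPP1 and 2, 3 and 3 lower in MPP2, MPP3 and MPP4, respectively, and none higher. Of all genes tested, 2.09%, 3.31%, 5.79% and 6.27% were lower and 4.71%, 4.49%, 8.14% and 10.3% higher in these 4 fractions, in this order. HSCs had 1 of 7 lower and none higher, beside 1.66% lower and 3.74% higher over all genes. Averaged over MPP1 to MPP4, the age difference was lower for 4 of the 7 genes (Irf1, Irf2, Irf5 and Irf7) and higher for 1 (Irf3), beside 17.7% of all genes lower and 18.9% higher. These 5 calls held in each of the 32 fits that left out 1 library.

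Irf2 fell in HSCs, from 171 and 157.5 CPM in Young libraries to 123 and 129.6 CPM in Aged libraries, a log2 fold change of -0.38 ± 0.08 (SE; adjusted p 0.00201). The groups did not overlap here or in any MPP. In MPP1 it fell from 132.5 and 127 to 100 and 99.2 CPM (-0.38, adjusted p 0.00164), in MPP3 from 99.6 and 109.7 to 76.4 and 82.6 CPM (-0.40, adjusted p 6.99e-04) and in MPP4 from 136.5 and 127 to 100.3 and 98.3 CPM (-0.41, adjusted p 3.71e-04). In MPP2 the values were 88.1 and 93.9 against 77.8 and 79.9 CPM (-0.21, adjusted p 0.0753). Over MPP1 to MPP4 the mean was -0.35 ± 0.04 (adjusted p 1.74e-07), that is 0.785 of the Young level, and the difference in HSCs was not distinguishable from it (-0.03 ± 0.08, adjusted p 0.933).

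These single-fraction calls for Irf2 were close to the threshold. The HSC call was lost without Young HSC replicate 1 (adjusted p 0.0213), the MPP3 call without Aged MPP3 replicate 1 (0.0256) or Young MPP3 replicate 2 (0.0323), the MPP4 call without Young MPP4 replicate 1 (0.0104), and the MPP1 call without any 1 of its 4 libraries (0.0104 to 0.0336).

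Irf5 fell in MPP2, MPP3 and MPP4 by similar amounts. The Young libraries had 36.9 and 34.1 CPM for MPP2, 45.8 and 51.0 CPM for MPP3 and 55.7 and 55.0 CPM for MPP4. The Aged libraries had 22.1 and 20.1, 28.7 and 28.9, and 34.7 and 34.6 CPM, respectively. No Aged library reached a Young one of its fraction. The mean over MPP1 to MPP4 was -0.65 ± 0.09 on the log2 scale (adjusted p 2.20e-06), 0.638 of the Young level, with MPP1 itself at -0.42 (adjusted p 0.117).

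Irf7 fell in MPP2, from 58.0 and 60.3 to 37.5 and 32.4 CPM (-0.76 ± 0.16, adjusted p 0.00302), and in MPP3, from 78.04 and 81.1 to 52.8 and 47.5 CPM (-0.67 ± 0.16, adjusted p 0.00414). In MPP4 the values were 93.7 and 95.3 against 67.4 and 68.0 CPM, without overlap and past the threshold with DESeq2 (adjusted p 0.00354) but not in the main test (0.0274). MPP1 had 50.1 and 54.3 against 49.1 and 48.2 CPM. The mean over the 4 MPPs was -0.50 ± 0.08 (adjusted p 2.32e-05).

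For both Irf5 and Irf7 each single-fraction call in an MPP was lost without any 1 of its 4 libraries, with adjusted p from 0.011 to 0.0724 for Irf5 and from 0.0145 to 0.0647 for Irf7, while the means over the MPPs held. Macrophage markers were also lower in these aged fractions, with 4, 7 and 6 of 9 tested lower in MPP2, MPP3 and MPP4 and a summed level of 150 to 171 CPM in the Young and 48.8 to 58.0 CPM in the Aged libraries of MPP2 and MPP3 and of 72.0 to 77.7 against 37.0 to 41.1 CPM in MPP4. Other lists moved in the same fractions. Neutrophil markers were lower for 5 of 7 in MPP2 (2373 and 2478 against 1596 and 1571 CPM) and in MPP3 (4218 and 4472 against 1891 and 1924 CPM) and for none in MPP4. In MPP2, MPP3 and MPP4, 3, 3 and 2 of 6 basophil and eosinophil, 3, 3 and 1 of 5 erythroid and 3, 3 and 2 of 4 megakaryocyte markers were lower. The monocyte and dendritic cell list went the opposite way, from 182 to 189 up to 362 to 364 CPM in MPP2 and from 149 to 166 up to 395.5 to 419 CPM in MPP4, with 2 of 6 higher in each, and was at 312 to 329 against 384 to 428 CPM in MPP3 with 1 lower. The part of these cell types in the Irf5 and Irf7 results was not tested. Irf8, outside the set, was at 27.1 and 26.8 against 22.2 and 21.3 CPM in MPP2. It was lower in MPP3, at 71.2 and 74.2 against 30.7 and 33.2 CPM. In MPP4 it was higher, at 68.8 and 72.4 against 99.0 and 102 CPM. In bulk samples fewer cells of a type and less RNA per cell cannot be told apart, here and in the results that follow.

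Irf1 fell in MPP4 alone among the MPPs, from 260.2 and 225 to 139.5 and 148 CPM (-0.76 ± 0.10, adjusted p 1.18e-05), and this call held without each library. In MPP1, MPP2 and MPP3 its log2 fold changes were -0.06, -0.03 and -0.05, with overlapping libraries in MPP2 and MPP3. Its mean over the MPPs, -0.22 ± 0.05 (adjusted p 0.00102), thus rests on MPP4. MPP4, the highest of the Young fractions for Irf1, did not differ past the test from HSCs in aged mice (log2 difference 0.01, adjusted p 0.95).

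Irf3 moved little. Its mean over MPP1 to MPP4 was 0.19 ± 0.04 higher (adjusted p 2.36e-04), a ratio of 1.14, and no single MPP passed the threshold, MPP4 being nearest with 55.7 and 58.1 against 67.1 and 66.8 CPM (0.24, adjusted p 0.0231). Irf9 was within 0.19 of 0 on the log2 scale in HSCs and each MPP, and its mean over the MPPs was -0.08 ± 0.05 (adjusted p 0.196). Irf4 had 3 to 27 counts in the Young and 0 to 8 in the Aged libraries of HSCs and MPPs, and its mean over the MPPs was -1.11 ± 0.46 (adjusted p 0.0524). It passed the threshold with DESeq2 (adjusted p 0.00824) and without Aged MPP1 replicate 2 (0.00594).

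In HSCs only Irf2 was called. Irf5 had 47.0 and 48.0 CPM in the Young and 30.6 and 39.6 CPM in the Aged HSC libraries, without overlap (-0.43, adjusted p 0.111). For Irf1 the HSC libraries had 159.8 and 159 against 137 and 148 CPM (-0.16, adjusted p 0.366), also without overlap. Irf7 had 72.0 and 77.95 against 53.7 and 69.6 CPM (-0.28, adjusted p 0.304), and Irf4 25 and 12 counts against 4 and 4 (-2.21, adjusted p 0.0674). These values all lay lower in the aged cells but did not pass the test, while the HSC libraries of Irf3 and Irf9 overlapped. Lack of overlap between pairs of libraries is weak information. The share of all genes without overlap was not determined, so no result is read from it here.

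**Figure D3:**
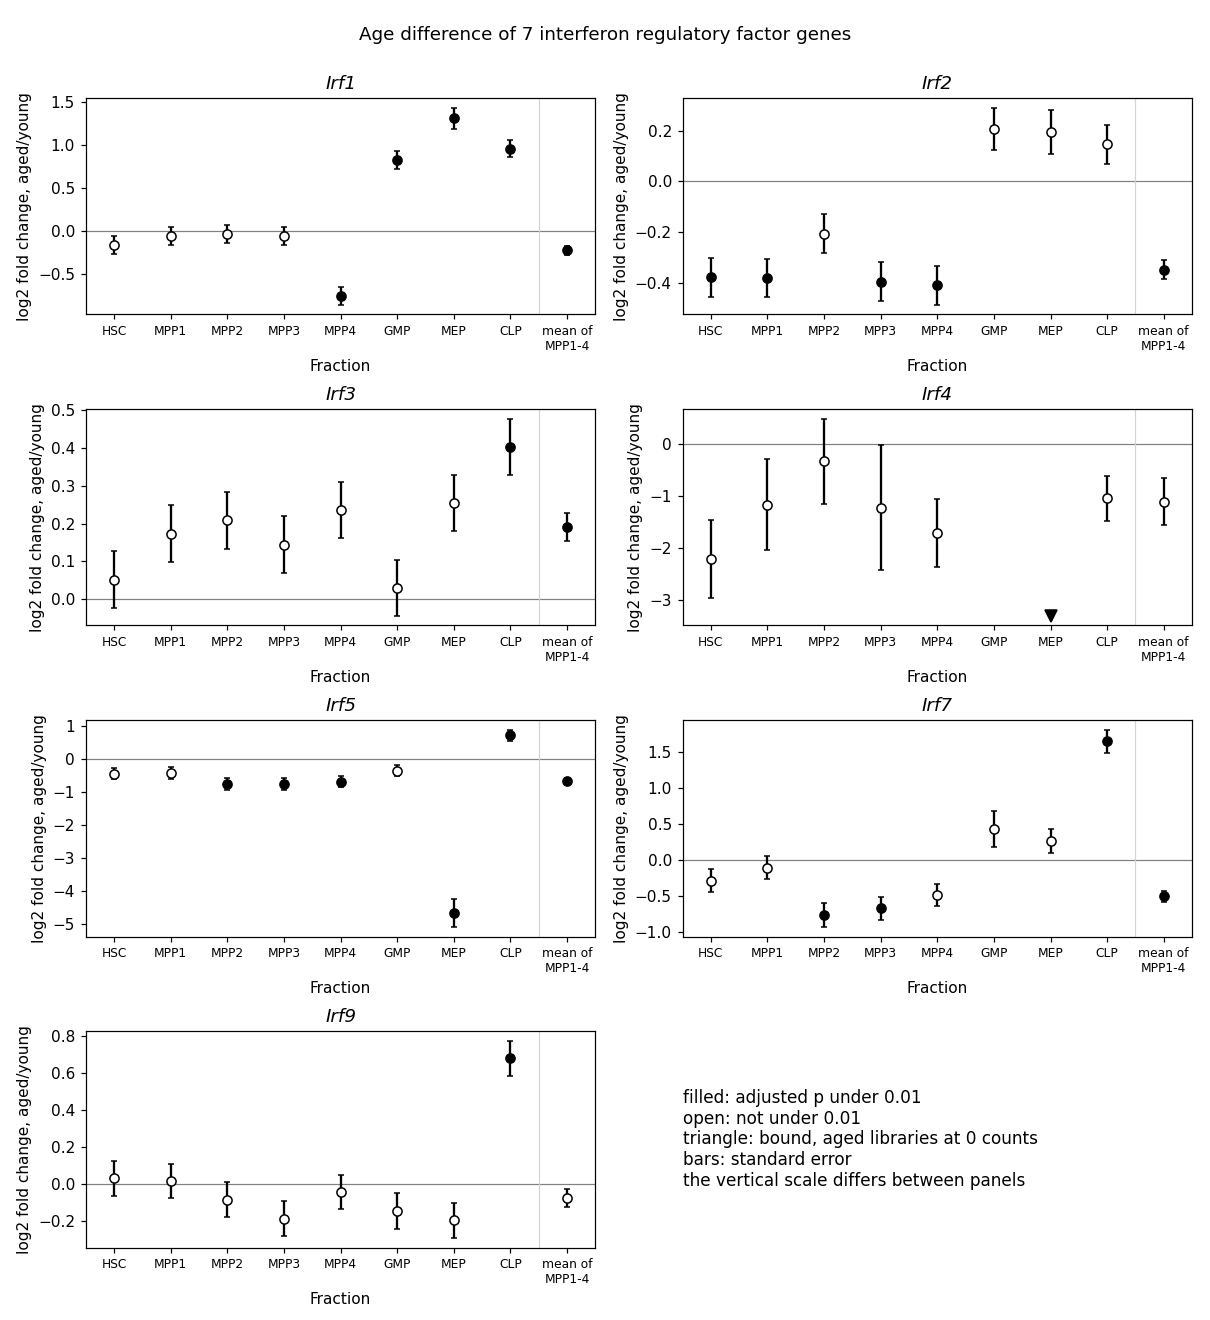
Log2 fold change of aged over young cells (vertical axis, scale differs between panels) with its standard error for the 7 genes in the 8 fractions and for the mean of MPP1 to MPP4 (horizontal axis); filled dots have adjusted p under 0.01, and n = 2 libraries per group. Irf1 rises in GMPs, MEPs and CLPs, Irf2, Irf5 and Irf7 lie below 0 in the MPPs, and the triangle for Irf4 in MEPs is a bound because both Aged libraries had 0 counts; Irf4 in GMPs is not drawn, both groups being at or near the floor.

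Downstream of the MPPs the family split by gene. In GMPs 1 of 7 was higher and none lower (all genes: 9.93% higher, 8.97% lower), in MEPs 1 higher and 2 lower (9.08% and 11.7%), and in CLPs 5 higher and none lower (5.71% and 4.73%).

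Irf1 rose in all 3 of these fractions. It went from 64.6 and 65.2 to 108 and 122 CPM in GMPs (0.83 ± 0.11, adjusted p 5.99e-06), from 12.55 and 15.3 to 30.7 and 38.3 CPM in MEPs (1.31 ± 0.12, adjusted p 3.90e-08) and from 162 and 159 to 319.7 and 305 CPM in CLPs (0.96 ± 0.10, adjusted p 9.38e-07). The Aged libraries stood above both Young libraries in each fraction. These 3 calls held without each library. In ratios they were 1.77, 2.49 and 1.95.

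The other genes were not called in GMPs. Irf5, there at its highest outside CLPs, had 65.3 and 62.3 against 42.7 and 57.7 CPM (-0.35, adjusted p 0.129), and Irf7, there at its lowest, 3.71 and 5.60 against 6.89 and 5.70 CPM (0.43, adjusted p 0.206). Irf3 was within 0.03 of 0 on the log2 scale. In MEPs Irf3 (78.2 and 73.4 against 92.5 and 88.4 CPM, adjusted p 0.0116) and Irf7 (40.2 and 37.0 against 43.4 and 49.3 CPM, adjusted p 0.236) were without overlap and not called.

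Irf1 is also a gene of the early stress response, so the summed level of 10 genes induced by cell handling is given beside it. In GMPs it was 303 and 326 CPM in the Young and 2865 and 3354 CPM in the Aged libraries, with 9 of 10 genes higher. In MEPs it was 192 and 203 against 536 and 921 CPM, with 5 of 10 higher. In CLPs it was 5488 and 5490 against 2803 and 1667 CPM, with 7 of 10 lower. The part of handling in the Irf1 values of GMPs, MEPs and CLPs was not tested.

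Irf5 and Irf4 fell in MEPs to the edge of detection. Irf5 had 122 and 118 counts in the Young and 0 and 7 counts in the Aged libraries (7.81 and 8.47 against 0 and 0.602 CPM; log2 fold change -4.66 ± 0.42, adjusted p 2.87e-08). The fitted value was -9.85 without Aged MEP replicate 2, which leaves 0 counts in the Aged group, and -3.77 without Aged MEP replicate 1. Irf4 had 27 and 50 counts (1.73 and 3.59 CPM) in the Young and 0 in both Aged libraries (adjusted p 1.42e-04). Against the floor of 3 counts per library it was at least 9.86-fold below the mean of the Young libraries. From the lower Young library this bound is smaller.

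Markers of other cells fell with them. The summed level of 7 B cell markers was 150 and 142 CPM in Young MEPs and 1.22 and 0.43 CPM in Aged MEPs, with 5 of 7 called lower and Cd79a, Ms4a1, Ebf1 and Pax5 at 0 in both Aged libraries. The monocyte and dendritic cell list was at 157 and 160 against 23.1 and 61.8 CPM (2 of 6 lower) and the macrophage list at 12.2 and 6.60 against 0.0937 and 1.03 CPM (4 of 9 lower). Irf8, outside the set, went from 19.6 and 27.3 to 1.87 and 2.50 CPM. Their part in the Irf4 and Irf5 results was not tested. In MEPs Irf9 had 95.3 and 77.1 against 71.3 and 79.0 CPM, overlapping and not called (-0.20, adjusted p 0.119), though it was called without Young MEP replicate 2 (-0.39, adjusted p 0.00411). In fits of only the 4 MEP libraries neither Irf4 nor Irf5 was called (adjusted p 0.0137 and 0.0124).

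In CLPs 5 of the 7 genes rose, the largest change being that of Irf7. It had 87.6 and 88.4 CPM in the Young and 339.8 and 213 CPM in the Aged libraries, a log2 fold change of 1.65 ± 0.16 (adjusted p 2.10e-07) or 3.14-fold. Both Aged libraries stood far above the Young ones but differed from each other by more than the Young pair did. Without Aged CLP replicate 1 the value was 1.28 and still called.

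Irf9 rose from 107.7 and 97.6 to 171 and 158 CPM (0.68 ± 0.09, adjusted p 2.86e-05), and Irf3 from 69.4 and 75.7 to 94.0 and 97.5 CPM (0.40 ± 0.07, adjusted p 5.72e-04). Irf5 went from 133.7 and 144 to 266 and 192.5 CPM (0.72 ± 0.16, adjusted p 0.00279). The Irf3 call was lost without Young CLP replicate 1 (adjusted p 0.0233), and the Irf5 call without Aged CLP replicate 1 (0.47, adjusted p 0.104) or either Young CLP library (0.0445 and 0.0168).

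The other 2 genes did not pass the test in CLPs. Irf2 had 93.9 and 97.5 against 110.6 and 101 CPM (0.15, adjusted p 0.202). Irf4 went the other way, 31.8 and 30.7 against 16.4 and 13.8 CPM, without overlap (-1.05 ± 0.44, adjusted p 0.108). CLPs, the highest Young fraction for Irf4 and Irf5, were the highest Aged fraction for Irf1, Irf3, Irf4, Irf5, Irf7 and Irf9. The step to the next fraction passed the test for Irf1 (1.12, MPP4), Irf4 (4.76, MPP4), Irf5 (2.19, GMP) and Irf7 (2.03, MPP4), and not for Irf3 (0.08, MEP, adjusted p 0.329) or Irf9 (0.22, HSC, adjusted p 0.0468). Irf2 remained highest in HSCs.

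Several marker lists moved with the CLP results. Of 6 plasmacytoid dendritic cell markers 4 were higher, and their summed level was 3214 and 3200 CPM in the Young and 6478 and 4748 CPM in the Aged libraries. Among them Siglech, a receptor of that cell, went from a mean of 1063 to 2622 CPM, while Ly6d went from 1190 to 954 CPM. The monocyte and dendritic cell list was at 2799 and 2901 against 8866 and 6337 CPM (4 of 6 higher). B cell markers fell from 2162 and 2225 to 970.2 and 970.6 CPM (6 of 7 lower), basophil and eosinophil markers from 2257 and 2293 to 319.8 and 115 CPM (6 of 6), and neutrophil markers from 1855 and 1903 to 341 and 335 CPM (7 of 7). Macrophage markers were at 206 and 228 against 51.8 and 76.2 CPM (8 of 9 lower). Megakaryocyte markers were at 38.6 and 36.1 against 103.5 and 155 CPM (3 of 4 higher). Ly6a, the gene of the sort antigen Sca-1, was at 34.4 to 35.9 CPM in the Young and 206.6 to 220.6 CPM in the Aged libraries.

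In Aged CLP replicate 1, which had the higher values of the dendritic lists, Irf7 and Irf5 were also the higher of the pair, as was Irf8 (5307 against 4120 CPM, with 3168 and 3267 CPM in the Young libraries). This library was also higher for basophil and eosinophil (319.8 against 115 CPM), handling (2803 against 1667), T and NK cell (106.6 against 70.4) and plasma cell markers (846 against 794.5). It was lower for macrophage (51.8 against 76.2 CPM), erythroid (52.9 against 81.2) and megakaryocyte markers (103.5 against 155). For Irf1, Irf3 and Irf9 the 2 Aged libraries lay close together, as the plot of the 4 CLP libraries shows. The part of these cell types in the CLP results was not tested. In fits of only the 4 CLP libraries Irf1 stayed called and Irf3, Irf5, Irf7 and Irf9 did not (adjusted p 0.0338, 0.0447, 0.0177 and 0.0161).

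**Figure D4:**
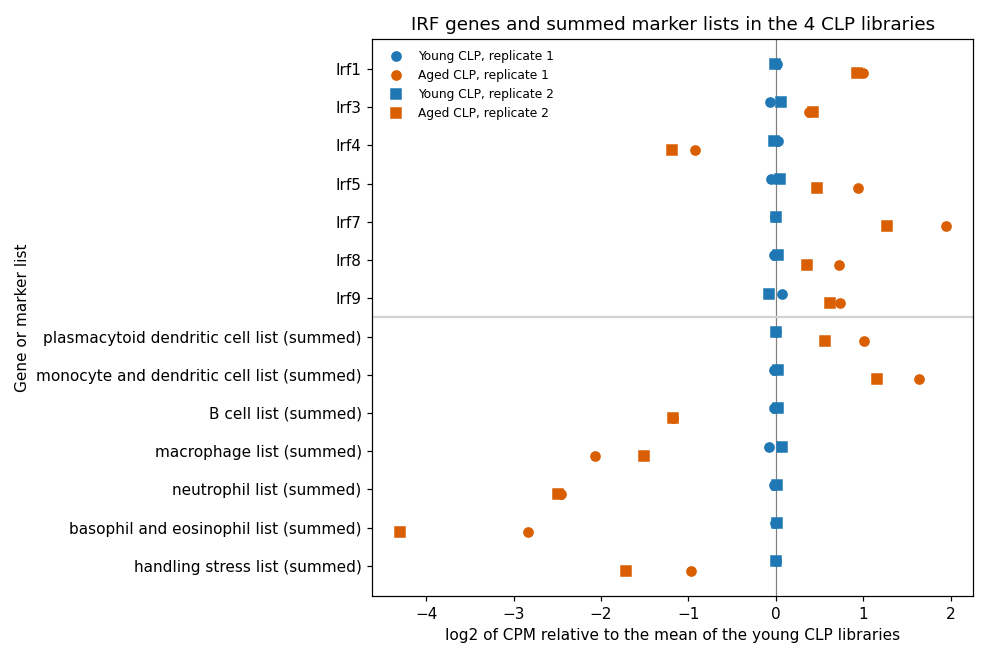
Log2 of CPM relative to the mean of the Young CLP libraries (horizontal axis) for 6 of the family genes (all but Irf2), Irf8 and 7 summed marker lists (vertical axis) in the 2 Young (blue) and 2 Aged (orange) CLP libraries, circles for replicate 1 and squares for replicate 2. Irf7, Irf5, Irf8 and the dendritic cell lists are higher in Aged replicate 1 than in Aged replicate 2, while Irf1, Irf3 and the B cell list are nearly equal in the Aged pair. The basophil and eosinophil list and the handling list are also higher in Aged replicate 1, and the macrophage list is lower.

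Whether the age difference itself varied between fractions was tested directly. It did for 5 of the 7 genes (Irf1, Irf2, Irf5, Irf7 and Irf9; F-test, adjusted p from 8.33e-09 for Irf1 to 2.27e-04 for Irf9), beside 34.9% of all genes, and was not called for Irf3 (adjusted p 0.0851) or Irf4 (0.0428). Set against the mean of the MPPs, the age difference of GMPs was greater for 3 of 7 genes (Irf1, Irf2 and Irf7; 12.7% of all genes), and that of CLPs was greater for 5 (Irf1, Irf2, Irf5, Irf7 and Irf9; 10.3%). In MEPs it was greater for 3 (Irf1, Irf2 and Irf7; 10.2%) and smaller for 2 (Irf4 and Irf5; 14.7%). No gene of the family differed between HSCs and the MPPs in this test (all genes: 1.91% greater, 1.1% smaller).

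For Irf2 these tests showed a difference where the single fractions did not. Its values in GMPs (30.4 and 33.7 against 37.9 and 36.1 CPM), MEPs (24.4 and 27.1 against 30.7 and 28.1 CPM) and CLPs did not pass the threshold, yet each age difference was 0.50 to 0.55 above that of the MPPs (adjusted p 6.16e-05 to 1.21e-04). The contrast for Irf7 in GMPs (0.93, adjusted p 0.00704) was lost without Aged GMP replicate 1 (0.0774), Aged GMP replicate 2 (0.0122) or Young GMP replicate 1 (0.0744), and when GC content and gene length entered as offsets (0.0266). The one in MEPs (0.77, adjusted p 0.00238) was lost without Aged MEP replicate 2 (0.0402) or Young MEP replicate 2 (0.0265) and with those offsets (0.0123). That of Irf4 in MEPs was lost without any of 5 libraries, 3 of them of MEPs, for which the adjusted p was 0.01 to 0.0249, and 1 each of Aged MPP1 and Aged MPP3, for which it was 1.

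Other genes of the pathway were read from lists by role. Of 11 interferon ligands, none passed the filter on low counts in any fraction. Among 16 receptors, Janus kinases, STATs and inhibitors, 7 were higher and 1 lower in CLPs (all genes: 5.71% and 4.73%), with a median log2 fold change of 0.50 beside 0 over all genes. In GMPs 3 were higher (9.93%), in MEPs 2 higher and 1 lower (9.08% and 11.7%), and for the mean of the MPPs 7 were lower and none higher (median -0.18, beside -0.04). Stat2, a partner of Irf9, rose in GMPs (0.72), MEPs (0.68) and CLPs, in the last from a mean of 84.8 ± 7.88 to 186 ± 17.7 CPM (1.13, adjusted p 3.42e-05). Stat3, which transmits cytokine signals, rose in GMPs (0.39) and CLPs (0.71). Socs1, an inhibitor of Janus kinases, fell in MPP2 (-1.08) and MPP4, from 25.3 ± 1.80 to 8.41 ± 0.986 CPM (-1.59, adjusted p 3.30e-05).

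Among 19 sensors, adaptors and kinases that act upstream of IRFs, 4 were higher and 1 lower in CLPs (all genes: 5.71% and 4.73%), 3 higher in GMPs (9.93%), and 1 higher and 3 lower in MEPs (9.08% and 11.7%), the GMP and MEP counts being near those shares. Over the mean of the MPPs 3 were higher and 5 lower (18.9% and 17.7%). Tmem173 (STING), the adaptor of the cytosolic DNA sensor, rose in MPP2, MPP3, MPP4 and CLPs by 0.47 to 0.60 and fell in MEPs from 3.77 ± 0.352 to 0.633 ± 0.165 CPM. Unc93b1, which carries nucleic acid-sensing Toll-like receptors to endosomes, shared 4 of the 5 fractions in which Irf5 was called, lower in MPP2 (-0.43), MPP3 (-0.46) and MEPs (-2.60, adjusted p 1.38e-11) and higher in CLPs (0.62), with -0.01 in MPP4. Myd88, the adaptor of most Toll-like receptors, rose in MPP2, MEPs and CLPs by 0.46 to 0.59. Ddx58 (RIG-I), a sensor of RNA, rose in GMPs (0.79) and fell in MEPs (-0.82) and CLPs (-0.60).

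Of 10 tested partners and co-regulators, 3 were lower in MEPs (all genes: 11.7%). In HSCs, MPP2, MPP3 and GMPs 1 each was higher (all genes: 3.74%, 4.49%, 8.14% and 9.93%). None was called in MPP1, MPP4 or CLPs. Spi1 and Spib, which bind DNA with Irf4, were both lower in aged MEPs, from 15.1 ± 1.89 to 3.40 ± 0.303 CPM (-2.15, adjusted p 7.58e-11) and from 8.19 ± 0.918 to 0.801 ± 0.206 CPM (-3.33, adjusted p 7.37e-05). Irf2bpl, named for its likeness to an Irf2-binding protein, rose in HSCs from 39.5 ± 1.99 to 100.4 ± 5.03 CPM (1.35, adjusted p 6.17e-04) and was lower in MEPs. Batf, an AP-1 factor that joins Irf4 and Irf8 on DNA, rose in MPP2 (0.51) and MPP3 (0.46).

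The targets fell into 2 lists. Of 33 genes induced through the ISRE, 10 were higher and none lower in CLPs (all genes: 5.71% and 4.73%), against 0 higher and 8 lower in MPP3 (8.14% and 5.79%) and 1 higher and 6 lower in MPP2 (4.49% and 3.31%). The medians were 0.41, -0.30 and -0.26 on the log2 scale, beside 0, -0.04 and -0.02 over all genes. In HSCs 3 were higher and none lower (all genes: 3.74% and 1.66%), and in MPP1 none and 1 (4.71% and 2.09%). The counts were 3 and 5 in MPP4 (10.3% and 6.27%) and 4 and 2 in GMPs (9.93% and 8.97%). In MEPs they were 7 and 4 (9.08% and 11.7%). The GMP counts, the higher count in MPP4 and the lower count in MEPs were near those shares. Rsad2 (viperin), an antiviral enzyme, fell in MPP2, MPP3, MPP4, GMPs and MEPs, most in GMPs from 12.97 ± 0.614 to 2.19 ± 0.434 CPM (-2.56, adjusted p 9.73e-09). Lgals3bp rose in HSCs, MPP4, GMPs, MEPs and CLPs by 0.37 to 0.46. Oasl2, of the family of antiviral oligoadenylate synthetases, fell in MPP3 (-0.39) and rose in GMPs (1.12), MEPs (2.21) and CLPs (0.95), and Ifitm3, a membrane protein that blocks virus entry, rose in HSCs (0.56), MPP4 (0.37) and MEPs (0.74).

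Of 25 targets of Irf1 and interferon-gamma, 14 were higher in GMPs, 15 in MEPs and 14 in CLPs (all genes: 9.93%, 9.08% and 5.71%), with none, none and 1 lower and medians of 0.81, 0.85 and 0.59. These are the fractions in which Irf1 rose. In MPP4, in which Irf1 fell, 6 were higher and 3 lower (10.3% and 6.27%). Irf1 was not called in HSCs or MPP1 to MPP3. The counts there were 1 higher and 1 lower in HSCs (3.74% and 1.66%) and 4 and 1 in MPP1 (4.71% and 2.09%). They were 2 and 1 in MPP2 (4.49% and 3.31%) and 4 and 4 in MPP3 (8.14% and 5.79%). Tap1, which pumps peptides toward MHC class I, rose in MPP1, MPP3 and MPP4 by 0.38 to 0.47 and in GMPs (0.74), MEPs (0.85) and CLPs (0.46). Igtp, an interferon-induced GTPase, rose in MEPs from 37.8 ± 5.83 to 148 ± 15.6 CPM (1.97, adjusted p 3.18e-09), and Psmb9, a subunit of the immunoproteasome, rose in 5 fractions by 0.38 to 0.71. Casp1, the inflammasome protease, rose in HSCs, the 4 MPPs and CLPs by 0.48 to 0.76 and was not called in GMPs or MEPs. Among list genes with a promoter window, the ISRE letters were in 10 of 25 ISRE targets and 10 of 18 Irf1 and interferon-gamma targets, beside 3.99% of 27025 genes. Both lists were chosen as targets of these factors, so a high share follows from the choice and tests nothing here.

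**Figure D5:**
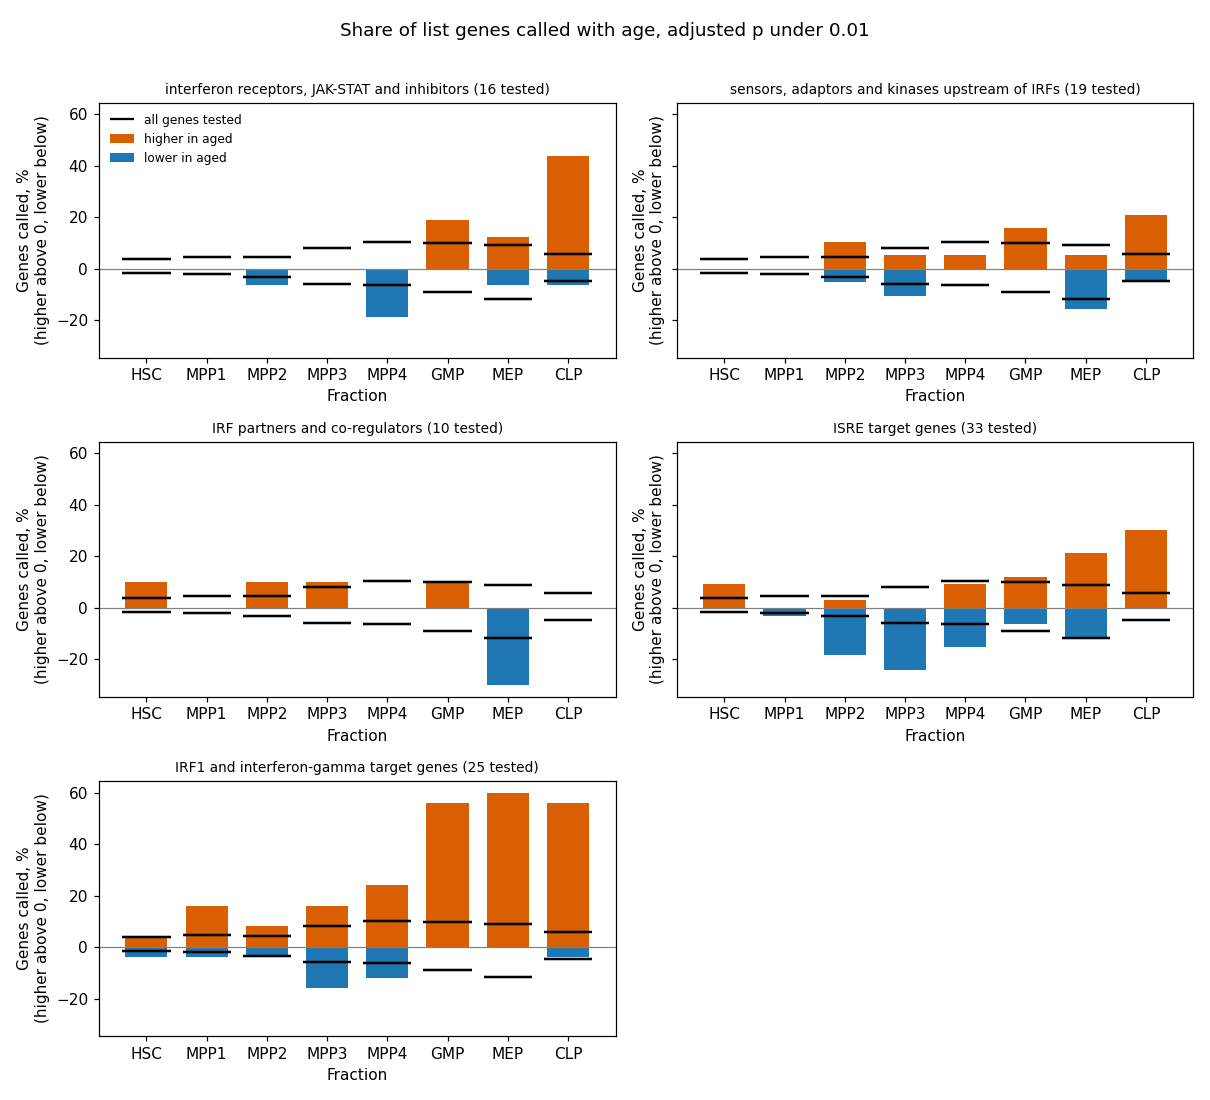
Percent of the tested genes of 5 pathway lists called higher (orange, above 0) and lower (blue, below 0) in aged cells at adjusted p under 0.01 (vertical axis) in the 8 fractions (horizontal axis), with black bars at the percent over all 14154 genes. The list of Irf1 and interferon-gamma targets exceeds 50% higher in GMPs, MEPs and CLPs.

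By the correlation of mean log2 CPM over the 16 groups, given as a description since each point rests on the same 2 libraries for every gene, Irf7 was most like Irf9 within the family (r = 0.80, n = 16) and Irf1 most like Irf2 (0.80), while Irf2 and Irf3 ran opposite (-0.65). Among genes averaging 5 CPM or more, those nearest to each member were Rabep2, Nub1 and H2-M3 for Irf1 (r = 0.98, 0.96 and 0.96), Slc23a2, Rab6b and Rrad for Irf2 (0.98 each), and Tor2a, Nfkbib and Rbck1 for Irf3 (0.97, 0.96 and 0.95). For Irf4 they were Bfsp2, Blnk and Scn4b (0.95, 0.91 and 0.90), for Irf5 Pik3ap1, Il16 and BC147527 (0.99, 0.98 and 0.97), for Irf7 Usp18, Tsc22d1 and Zfp36l1 (0.95 each), and for Irf9 Nmrk1, Bcdin3d and Ppp1r16b (0.90, 0.90 and 0.87). Blnk is an adaptor of the B cell receptor, Pik3ap1 an adaptor of B cell and Toll-like receptor signaling, and Usp18 an interferon-induced inhibitor of the type I receptor. The ranking was loose, with 9 of the 21 among the 20 most like by Spearman correlation and 8 over the 8 Young groups.

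Some exons of these genes overlap exons of others, and whether the counting used strand was not stated. Irf3 shares 88 bases with Bcl2l12, Irf5 411 with Tnpo3, Irf7 45 with Phrf1, Irf9 123 with Rnf31 on the same strand, and Irf1 135 with Gm17334, a gene with no row in the table. None of the 4 neighbors with a row was called in CLPs (Bcl2l12 -0.11, Tnpo3 -0.05, Phrf1 0.04 and Rnf31 0.29 on the log2 scale). Tnpo3 was higher in MPP3 (0.22) and MPP4 (0.34), where Irf5 was lower. Rnf31 was higher in MEPs (0.91), and Phrf1 in GMPs (0.57).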

How the data were processed

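RNA from 8 sorted fractions of female C57BL/6 bone marrow at 2 ages was amplified with a low-input SMARTer kit and sequenced as single reads. According to the submitters' processing notes, the authors aligned reads to mm10 with TopHat 2.0.13 and Bowtie 2.1.0, and the deposited values are raw counts per gene, with 24421 genes and 32 libraries, not normalized. No use of strand was stated. Here counts were filtered with filterByExpr over the 16 groups, scaled by the TMM method (factors 0.807 to 1.11) and tested with the quasi-likelihood test of edgeR 4.0.16 in R 4.3.3, fitted to all 32 libraries with 1 mean per group. P-values were adjusted by Benjamini-Hochberg within each contrast over 14154 genes, with a threshold of 0.01. Samples were grouped by the age and fraction in their labels. CPM values are TMM-scaled and errors are SD of 2 libraries or SE of the fit.

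Exon lengths and positions came from GENCODE on GRCm38 and promoter windows from RefSeq. Log2 fold changes are of aged over young cells. Floors of 3 counts cover counting error only, since reads carried no molecular identifiers. Alternatives were DESeq2 1.42.0, DESeq2 size factors, no filter, a replicate block, offsets for GC content and length, other thresholds, fits of single fractions and the omission of each library. The scripts were tested on simulated data. The family, the pathway and marker lists, and the tests were chosen with earlier results of these data known. In addition to the 7 genes, up to 4 genes per list were named, those called in the same direction in the most fractions, together with the 3 genes most like each member among genes averaging 5 CPM or more, overlapping genes and markers. Ly6a, Kit, Cd34 and Il7r stand for the sort antigens, and Irf8 was added after its values were seen. Some genes that the rule names are not reported here.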

Additional observations from a re-analysis of the deposited data

Results flagged for a closer look

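Single libraries were not tested as outliers within their groups, which hold 2 each. The results singled out here are age differences that differed between fractions in a test of the difference itself, adjusted over all genes.

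Over all 8 fractions the age differences were unequal for Irf1 (adjusted p 8.33e-09), Irf7 (4.49e-07), Irf5 (7.04e-07), Irf2 (2.81e-05) and Irf9 (2.27e-04). Relative to the mean of MPP1 to MPP4, the log2 age difference of Irf1 was greater by 1.05 in GMPs (adjusted p 5.72e-07), 1.54 in MEPs (1.52e-08) and 1.19 in CLPs (1.15e-07). For Irf2 the excess was 0.55 in GMPs (6.16e-05), 0.54 in MEPs (1.07e-04) and 0.50 in CLPs (1.21e-04), although no single one of these fractions had a call for Irf2.

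For Irf7 it was 0.93 in GMPs (adjusted p 0.00704), where its level was 3.71 to 6.89 CPM, 0.77 in MEPs (0.00238) and 2.15 in CLPs (1.47e-08). Irf9 differed in CLPs (0.76, adjusted p 1.01e-05). Irf5 differed in both directions, by 1.37 in CLPs (5.87e-06) and by -4.01 in MEPs (7.08e-07), and Irf4 by -7.07 in MEPs (0.00352), a fitted value that depends on the prior count because both Aged MEP libraries had 0 counts.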

How the results depend on the processing

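The 19 calls of an age difference among 56 became 4 when a log2 fold change beyond 1 in either direction was also required and 12 in fits of each fraction alone, and ranged from 16 to 20 when 1 library was left out. The 5 calls for the mean of the MPPs became 0 with the fold threshold and ranged from 5 to 6. For the pathway lists, 169 calls became 54 with the fold threshold and 262 at an adjusted p under 0.05, and ranged from 148 to 190. The 5 calls of unequal age differences and the 7 of unequal levels in Young and in Aged fractions did not change when 1 library was left out. No called value changed sign, while values near 0 that were not called did so when 1 library was left out, such as Irf1 in MPP3 (-0.17 to 0.12). The replicate numbers shared by groups did not pair the samples (correlations of same-numbered deviations between Young and Aged libraries from -0.056 to 0.07 by fraction), and with the replicate as a block 19 age calls and 5 calls each for the mean of the MPPs and for unequal age differences were made. DESeq2, its size factors, no filter, the block and the offsets ended no single-fraction call. Calls gained were Irf4 (adjusted p 0.00887) and Irf7 (0.00354) in MPP4 with DESeq2, Irf3 in MPP2 (0.00584) and MPP4 (0.00351) with the GC and length offsets, and Irf5 in MPP1 (0.00467) and Irf7 in MPP4 (0.00588) in the fits of 1 fraction. The latter ended those of Irf2 in HSCs (0.0828), MPP3 (0.0191) and MPP4 (0.0114). Those fits have 2 residual degrees of freedom each. Otherwise the cause was not tested. With 2 libraries per group, and with Irf4 at or below 27 counts in each HSC, MPP and GMP library, small differences could not be resolved.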
